A study of Homo sapiens with 12 samples.

Results

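The HOX cluster genes were examined in LNCaP cells, an androgen-sensitive human prostate cancer line, in which the deubiquitinase USP22 had been raised or lowered. Members were the rows of the count table whose Ensembl ID maps to a numbered HOXA, HOXB, HOXC or HOXD gene or to an antisense RNA named after a cluster, with HOTAIR, HOTTIP and HOTAIRM1. This rule, which uses no measured value, found 52 of 63677 IDs: 39 coding genes and 13 noncoding RNAs, with 15 in HOXA, 14 in HOXB, 13 in HOXC and 10 in HOXD.

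Total RNA was sequenced in 12 libraries, 3 in each of 4 groups. Cells overexpressing USP22 were set against cells with the pLPLUC vector control, and cells with an shRNA against USP22 (here called depletion) against cells with a control shRNA. Doxycycline (1 ug/mL, renewed at intervals of 48 hours over 5 days) was given to both shRNA groups and, by the labels, to neither of the others, and the medium of all cells contained hormone. The labels name a single shRNA sequence against USP22 and do not say whether a line was 1 clone. Nothing in them ties replicates to separate cultures, so each p-value reflects the scatter among these libraries, which may be technical.

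HOX genes encode homeodomain transcription factors that give cells their position along the body axis, and their order along each cluster follows the order in which they are used from head to tail. Polycomb complexes keep the clusters silent, Trithorax and MLL complexes keep them active, and the proteins bind DNA together with TALE homeodomain partners of the PBX and MEIS families. HOXB13, the gene at the posterior end of its cluster, is a lineage factor of the prostate epithelium and a partner of the androgen receptor. USP22 is the ubiquitin protease of the SAGA coactivator and removes ubiquitin from histones.

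The libraries held 77607469 to 103690001 counted reads. USP22 followed the labels, with 1466 ± 52.2 CPM (reads scaled to library size) after overexpression against 512.5 ± 45.9 CPM in the vector control. After depletion it stood at 257.6 ± 7.38 CPM against 477.6 ± 3.65 CPM in the shRNA control (SD, n = 3 each). All 10 prostate luminal markers looked for were measured, with a summed level of 5675 to 5765 CPM after overexpression, 5989 to 6084 CPM in the vector control, 5764 to 6271 CPM after depletion and 7617 to 7937 CPM in the shRNA control. Of 7 markers of basal cells and other lineages PECAM1 had no read, and KRT5, TP63 and PTPRC were below the limit for testing. The sum of these 7 was 11.69 to 13.72 CPM after overexpression, 10.76 to 13.84 CPM in the vector control, 20.1 to 24.01 CPM after depletion and 24.97 to 26.22 CPM in the shRNA control. Vector control replicate 3 differed from its group mates by chi-square values of 65.8 and 119.4 per degree of freedom, against 40.64 between the other 2 vector libraries.

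RefSeq promoter windows (GRCh38.p14) were at hand for 28 of the 52 members. HOXB13, HOXA5, HOXC13, HOXC12, HOXB3 and HOXC10 had no window. Windows follow for the other members that changed on depletion, each with the 250 bases before the RefSeq start, 5′ to 3′ in the direction RefSeq gives. Capitals mark a CCAAT box (CCAAT, or ATTGG on the other strand) or a GC box (GGGCGG, or CCGCCC on the other strand).
HOXA6, chr7:27147775-27148024, minus strand: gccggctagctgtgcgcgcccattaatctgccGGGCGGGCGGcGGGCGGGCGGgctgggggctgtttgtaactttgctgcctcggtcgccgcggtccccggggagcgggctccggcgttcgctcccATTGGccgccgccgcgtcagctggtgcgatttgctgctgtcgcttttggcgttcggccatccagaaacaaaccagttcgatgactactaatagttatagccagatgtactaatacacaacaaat
HOXA-AS3, chr7:27146913-27147162, plus strand: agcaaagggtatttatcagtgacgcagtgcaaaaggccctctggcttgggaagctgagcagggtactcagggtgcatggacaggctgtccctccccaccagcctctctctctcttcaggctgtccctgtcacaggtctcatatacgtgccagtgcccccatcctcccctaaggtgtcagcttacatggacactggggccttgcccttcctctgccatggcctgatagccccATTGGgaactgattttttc
HOXC4, chr12:54016638-54016887, plus strand: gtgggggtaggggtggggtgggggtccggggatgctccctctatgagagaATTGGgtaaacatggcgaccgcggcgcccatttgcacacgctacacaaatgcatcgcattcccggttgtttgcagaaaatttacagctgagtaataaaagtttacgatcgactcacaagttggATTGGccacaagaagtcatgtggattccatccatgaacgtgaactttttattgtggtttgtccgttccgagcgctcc

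The HOXA6 window had a GC content of 62% with 27 CpG pairs, the HOXA-AS3 window 56.4% with 2, and the HOXC4 window 50.8% with 14. HOXC5 had the same window as HOXC4. For this window the bases after the start were not found in a GENCODE 29 transcript of either gene. Its start and direction therefore rest on RefSeq alone. HOXA6 and HOXA-AS3 lie on opposite strands, and their exons overlap in GENCODE 29. Among coding genes of HOXB only HOXB1 had a window, and of HOXC only HOXC4 and HOXC5, whose shared window was counted for each. The shares that follow thus describe mostly HOXA and HOXD members. Over all 36 windows of members, some members having several, the CCAAT box was found on either strand in 23 (63.9%), against 32% of 35116 RefSeq windows. The GC box was found in 14 (38.9%) against 42.6%, and a TATA box (TATAAA) in 6 (16.7%) against 10.7%. The HOX-PBX composite motif TGATTNAT was in 2 (5.56%) against 2.48%, and CCAATAAA, a HOXB13 motif that contains the CCAAT box, in 0 against 0.863%. The median window of a member had a GC content of 54.8% with 14 CpG pairs, against 58% with 11 over all windows. These are letter matches in short windows and say nothing of binding.

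The HOX reads of these cells came mostly from HOXB13. Counts over the 12 libraries summed to 313007 in HOXB, 32943 in HOXC, 14682 in HOXA and 160 in HOXD. HOXB13 held 85.65% to 86.25% of all HOX reads after overexpression, 85.92% to 88.18% in the vector control, 84.07% to 85.62% after depletion and 82.81% to 84.04% in the shRNA control. Per kb of exon, which allows genes of different length to be compared, HOXB13 averaged 84.8 CPM per kb, above 97.9% of 14870 tested protein-coding genes. The next members were HOXC13 with 3.98, HOXC6 with 3.76, HOXC9 with 2.3 and HOXA5 with 1.66 CPM per kb. Exons of HOXC6 and HOXC9 overlap on the same strand. How shared reads were counted is unknown, so their levels per kb are less certain. HOXC6, known for its high expression in prostate tumours, and HOXB13 were the 2 members with a mean of at least 10 CPM.

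**Figure D1:**
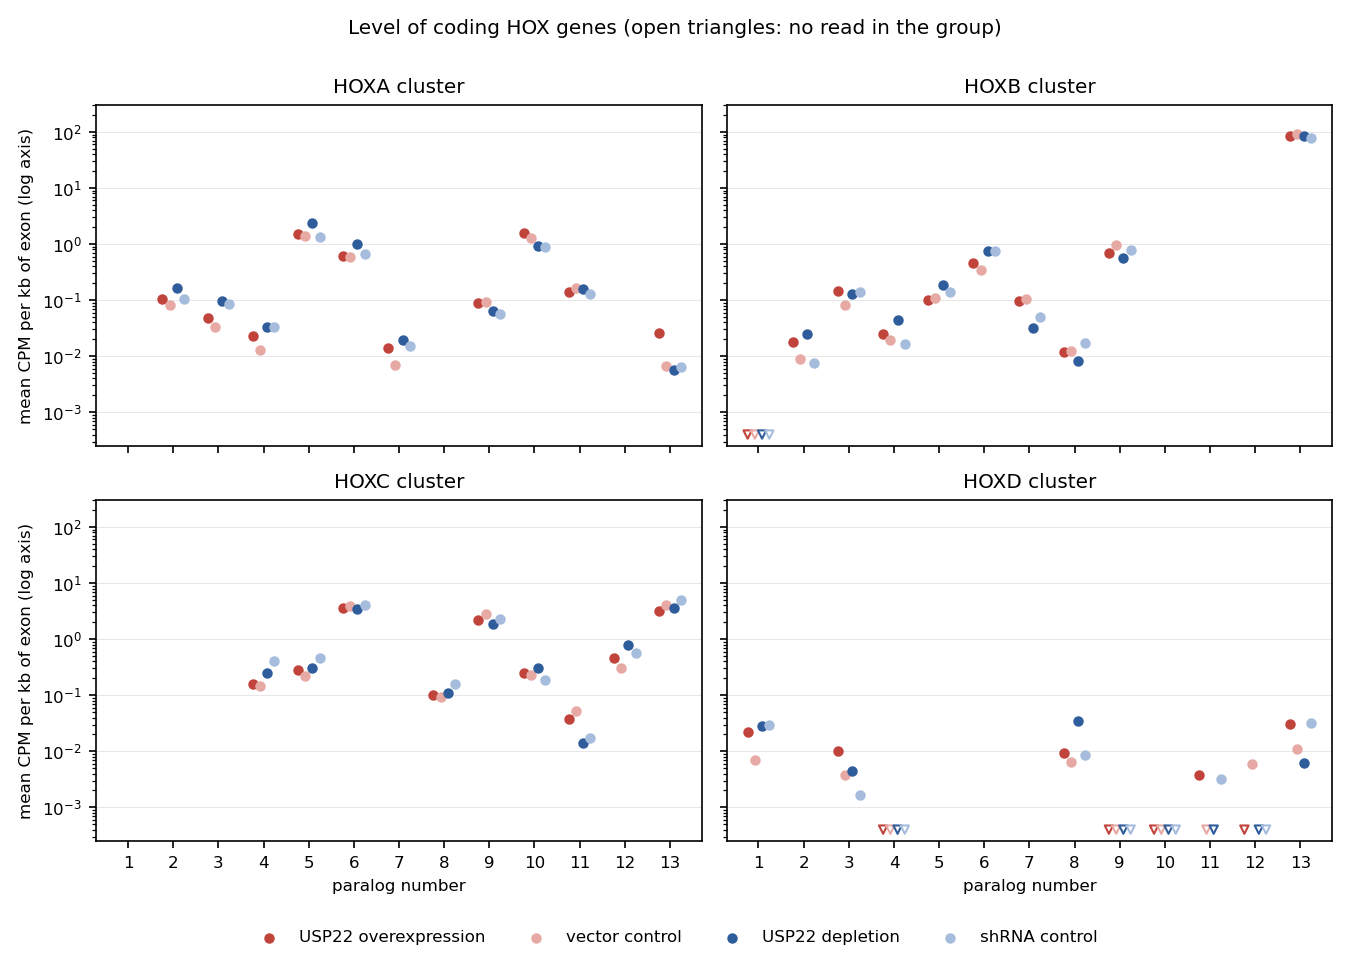
Mean level of coding HOX genes in CPM per kb of exon (log axis) by paralog number, with 1 panel a cluster and 1 point for each group of 3 libraries; open triangles mark groups without a read. HOXB13 stands at 79.1 to 92.5 CPM per kb, HOXC6, HOXC9 and HOXC13 lie between 1.86 and 5.08 CPM per kb, and no HOXD gene reaches 0.1 CPM per kb.

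Of the 52 members 30 passed the filter on low counts and were tested, 24 coding and 6 noncoding: 11 in HOXA, 8 in HOXB, 11 in HOXC and none in HOXD. The 22 untested members had at most 18 reads in any library, and 5 of them (HOXB1, HOXD4, HOXD9, HOXD10 and HOXD-AS2) had no read in any. A count of 0 allows up to 3 reads, which is 0.0269 to 0.0423 CPM depending on the library. The highest HOXD member per kb was HOXD1, with 6, 1 and 4 reads after overexpression, 1, 0 and 2 in the vector control, 4, 4 and 7 after depletion and 8, 5 and 4 in the shRNA control. All of its values were at or near the counting limit. HOTAIR, a noncoding RNA of the HOXC cluster known for binding Polycomb proteins, had at most 12 reads in a library. HOXA13, a posterior gene of the limb and urogenital tract, had 8, 16 and 8 reads after overexpression against 6, 2 and 0 in the vector control, and 2, 4 and 2 after depletion against 4, 0 and 6 in the shRNA control. It was not tested.

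The first comparison asked what raising USP22 did to the HOX genes. HOXB3 and HOXC12 rose and HOXC13 fell, each by less than 2-fold, and no HOXA gene was called. These were 3 of 30 tested members (10%), where 4.11% of all 26076 tested genes were called (edgeR quasi-likelihood test, Benjamini-Hochberg adjusted p under 0.05 over all tested genes). The median log2 fold change of the 30 was 0.15, against -0.01 over all tested genes. By direction, 2 members rose where 1.51% of all tested genes did, and 1 fell where 2.6% did. Groups did not overlap for 7 of the 30 members, against 22.4% of all tested genes, and 7 had an unadjusted p under 0.05, against 18.5%. The count fell to 1 without vector control replicate 1, any overexpression replicate, shRNA control replicate 2 or depletion replicate 1 or 3. A fit of only the libraries compared called 0, and 1.37% of all genes.

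HOXB3, an anterior gene known from mouse hindbrain patterning and blood stem cells, had 1.033, 1.083 and 1.2 CPM after overexpression against 0.5208, 0.6094 and 0.6906 CPM in the vector control. Every overexpressing library was above every vector library. HOXB3 rose 1.82-fold (95% interval 1.39 to 2.39, log2 0.87, SE 0.19, edgeR adjusted p = 0.0133). Without overexpression replicate 3 it was log2 0.80 and not called (edgeR adjusted p = 0.0619), and in a fit of only the 6 compared libraries log2 0.88 and not called (edgeR adjusted p = 0.061). HOXB3 exons overlap those of HOXB4 and HOXB6 on the same strand and of HOXB-AS1 and HOXB-AS3 on the other, so reads may be shared. HOXB6, which averaged 1.2 CPM after overexpression and 0.887 CPM in the vector control, showed log2 0.43 for this contrast (SE 0.15, edgeR adjusted p = 0.134), and HOXB-AS3 showed log2 0.57 (SE 0.31, edgeR adjusted p = 0.344). Neither was called.

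HOXC12, a posterior gene whose mouse counterpart is expressed in hair follicles, had 1.532, 1.387 and 1.787 CPM after overexpression against 0.8764, 1.024 and 1.184 CPM in the vector control. The groups did not overlap. HOXC12 rose 1.53-fold (95% interval 1.2 to 1.94, log2 0.61, SE 0.16, edgeR adjusted p = 0.0447). The call was lost in 10 of 19 alternative analyses, among them the removal of vector control replicate 1 (log2 0.51, edgeR adjusted p = 0.109) or 2 (0.0758), or of overexpression replicate 1 (0.115), 2 (0.0662) or 3 (0.172).

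HOXC13, a regulator of hair keratin genes, had 7.175, 7.945 and 8.247 CPM after overexpression against 9.31, 9.031 and 10.74 CPM in the vector control. All 3 overexpressing libraries were below all 3 vector libraries. It fell to 0.804 of the vector level (95% interval 0.71 to 0.911, log2 -0.31, SE 0.08, edgeR adjusted p = 0.0482). This call was lost in 16 of 19 alternatives, with log2 values of -0.37 to -0.24 and adjusted p of up to 0.245. The removal of any library but vector control replicate 2 ended it.

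HOXB13 itself had 289.7, 290.5 and 298.6 CPM after overexpression against 298.6, 297.9 and 365.6 CPM in the vector control. The groups overlapped, and vector control replicate 3 was the highest library. The fold change of 0.914 (95% interval 0.821 to 1.02, log2 -0.13, SE 0.07) did not pass the test (edgeR adjusted p = 0.358). Without vector control replicate 3 it was log2 -0.03 (edgeR adjusted p = 0.823). HOXA5 had 2.198, 2.884 and 2.787 CPM after overexpression against 2.528, 2.011 and 2.495 CPM in the vector control, with overlapping groups (log2 0.16, SE 0.14, edgeR adjusted p = 0.577).

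The second comparison asked what lowering USP22 did under doxycycline. HOXA5, HOXA6 and HOXA-AS3, which lie together in the middle of the HOXA cluster, rose by 1.54- to 1.8-fold, while HOXC13 and HOXC4 fell and HOXC10 and HOXC12 rose. HOXB13 did not pass the test. In all, 7 of 30 tested members were called (23.3%), where 19.8% of all tested genes were called, so the share of members lay near the background. Of the 7, 5 rose (9.4% of all tested genes rose) and 2 fell (10.4% of all tested genes fell). Groups did not overlap for 12 of the 30 members, against 41.8% of all tested genes, and 11 had an unadjusted p under 0.05, against 30.9%. The count was 3 without shRNA control replicate 1, and 4 without shRNA control replicate 3 or depletion replicate 2. A fit of only the libraries compared called 10, with HOXB9, HOXC6 and HOXC9 lower as well, and 32% of all genes.

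By cluster, the signs on depletion differed, which is given as a description without a test. In HOXA, 10 of 11 tested members had a positive log2 fold change, with a median of 0.20, and in HOXC 2 of 11, with a median of -0.32, against 0.00 over all tested genes. In HOXB, 4 of 8 were positive (median 0.02). Reads of all HOXA members summed to 15.8 to 16.67 CPM after depletion against 12.59 to 13.41 CPM in the shRNA control, and those of HOXC to 28.85 to 30.22 CPM after depletion against 34.64 to 36.9 CPM in the shRNA control. Neither pair of ranges overlapped. For HOXC the vector control, with 30.59 to 32.56 CPM, lay between them and the shRNA control was the group that stood apart, while for HOXA the vector control, with 11.66 to 13.32 CPM, was close to the shRNA control. A few members carried much of these differences. HOXA5 averaged 4.1 CPM after depletion and 2.27 CPM in the shRNA control, HOXC13 8.77 and 12.3 CPM, and HOXC6 12.2 and 14.3 CPM. Members of a cluster lie side by side, some have overlapping exons and may share reads, and they are not independent of each other.

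HOXA5, a transcription factor of mouse lung development, had 4.218, 3.591 and 4.484 CPM after depletion against 2.443, 2.25 and 2.111 CPM in the shRNA control. Every depleted library was above every library of the other 3 groups. HOXA5 rose 1.8-fold (95% interval 1.48 to 2.2, log2 0.85, SE 0.14, edgeR adjusted p = 0.000283). It was called in all 19 alternatives, with log2 values of 0.81 to 0.96. GENCODE 29 gives HOXA5 no exon overlap with another gene.

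HOXA6, its neighbour in the cluster, had 1.338, 1.255 and 1.346 CPM after depletion against 0.7364, 0.8861 and 0.943 CPM in the shRNA control, with no overlap between the groups. The fold change was 1.54 (95% interval 1.2 to 1.97, log2 0.62, SE 0.17, edgeR adjusted p = 0.0158), and without shRNA control replicate 1 it was log2 0.54 and not called (edgeR adjusted p = 0.0757). HOXA-AS3, a noncoding RNA whose exons overlap HOXA3, HOXA4, HOXA6 and HOXA7 on the other strand, had 0.8987, 1.06 and 0.6491 CPM after depletion against 0.5298, 0.5946 and 0.4817 CPM in the shRNA control. These groups did not overlap either. HOXA-AS3 rose 1.63-fold (95% interval 1.17 to 2.28, log2 0.71, SE 0.23, edgeR adjusted p = 0.0371). The call was lost without shRNA control replicate 1 (edgeR adjusted p = 0.0951) or 3 (0.115), or without depletion replicate 1 (0.0934) or 2 (0.154). Since the strand setting used in counting is unknown here, reads of HOXA6 and HOXA-AS3, whose promoter windows are printed above, cannot be told apart with certainty.

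HOXC13 had 8.824, 9.015 and 8.475 CPM after depletion against 12.32, 12.51 and 12.12 CPM in the shRNA control. The groups lay far apart relative to their spread. It fell to 0.713 of the control level (95% interval 0.631 to 0.805, log2 -0.49, SE 0.08, edgeR adjusted p = 0.000498) and was called in all 19 alternatives. The depleted libraries lay near the vector control, at 9.031 to 10.74 CPM, and the shRNA control was the highest of the 4 groups. HOXC13-AS, which overlaps HOXC13 on the other strand, had 3.901, 4.147 and 3.702 CPM after depletion against 5.945, 5.619 and 5.422 CPM in the shRNA control (log2 -0.53, SE 0.09, edgeR adjusted p = 0.000601). With the strand setting unknown, reads of HOXC13 and HOXC13-AS cannot be told apart with certainty either.

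HOXC4, known in mouse B cells as an activator of the antibody-mutating enzyme AID, had 0.7558, 0.7512 and 0.565 CPM after depletion against 1.024, 1.096 and 1.24 CPM in the shRNA control. The groups did not overlap. It fell to 0.62 of the control level (95% interval 0.463 to 0.829, log2 -0.69, SE 0.20, edgeR adjusted p = 0.0211), and the call was lost without shRNA control replicate 2 (edgeR adjusted p = 0.0576) or 3 (0.0996), or without depletion replicate 3 (0.0951). In the vector control HOXC4 had 0.3811, 0.3412 and 0.451 CPM, below both doxycycline-treated groups. Its exons overlap those of HOXC6 on the same strand. HOXC6 averaged 12.2 CPM after depletion and 14.3 CPM in the shRNA control (log2 -0.23, SE 0.08, edgeR adjusted p = 0.0616) and was not called.

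HOXC10, a posterior gene of lumbar motor neurons and hindlimb, had 0.6128, 0.8233 and 0.6852 CPM after depletion against 0.4041, 0.4663 and 0.4612 CPM in the shRNA control. Every depleted library was above every control library. HOXC10 rose 1.6-fold (95% interval 1.17 to 2.18, log2 0.67, SE 0.21, edgeR adjusted p = 0.0344). The call was lost in 6 of 18 alternatives, with adjusted p of up to 0.123, among them the removal of any shRNA control library or of depletion replicate 2 or 3. HOXC10 exons overlap those of another annotated gene on the same strand and of HOXC-AS3 on the other, so reads may be shared.

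HOXC12 had 2.615, 2.84 and 2.572 CPM after depletion against 1.608, 2.017 and 2.111 CPM in the shRNA control, again without overlap. HOXC12 rose 1.4-fold on depletion (95% interval 1.13 to 1.74, log2 0.49, SE 0.15, edgeR adjusted p = 0.0258), and the call was lost without shRNA control replicate 1 (log2 0.40, edgeR adjusted p = 0.112) or depletion replicate 2 (0.0731). GENCODE 29 gives HOXC12 no exon overlap with another gene.

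HOXB13 had 281.5, 306.3 and 275.6 CPM after depletion against 280.1, 272.8 and 270 CPM in the shRNA control. The groups overlapped. The fold change was 1.05 (95% interval 0.943 to 1.17, log2 0.07, SE 0.07, edgeR adjusted p = 0.579), and over 19 alternatives the log2 value was 0.04 to 0.12 with no call. HOXB3 had 1.042, 0.8335 and 1.058 CPM after depletion against 1.141, 0.8744 and 1.107 CPM in the shRNA control, with overlapping groups and a fold change of 0.935 (95% interval 0.726 to 1.2).

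**Figure D2:**
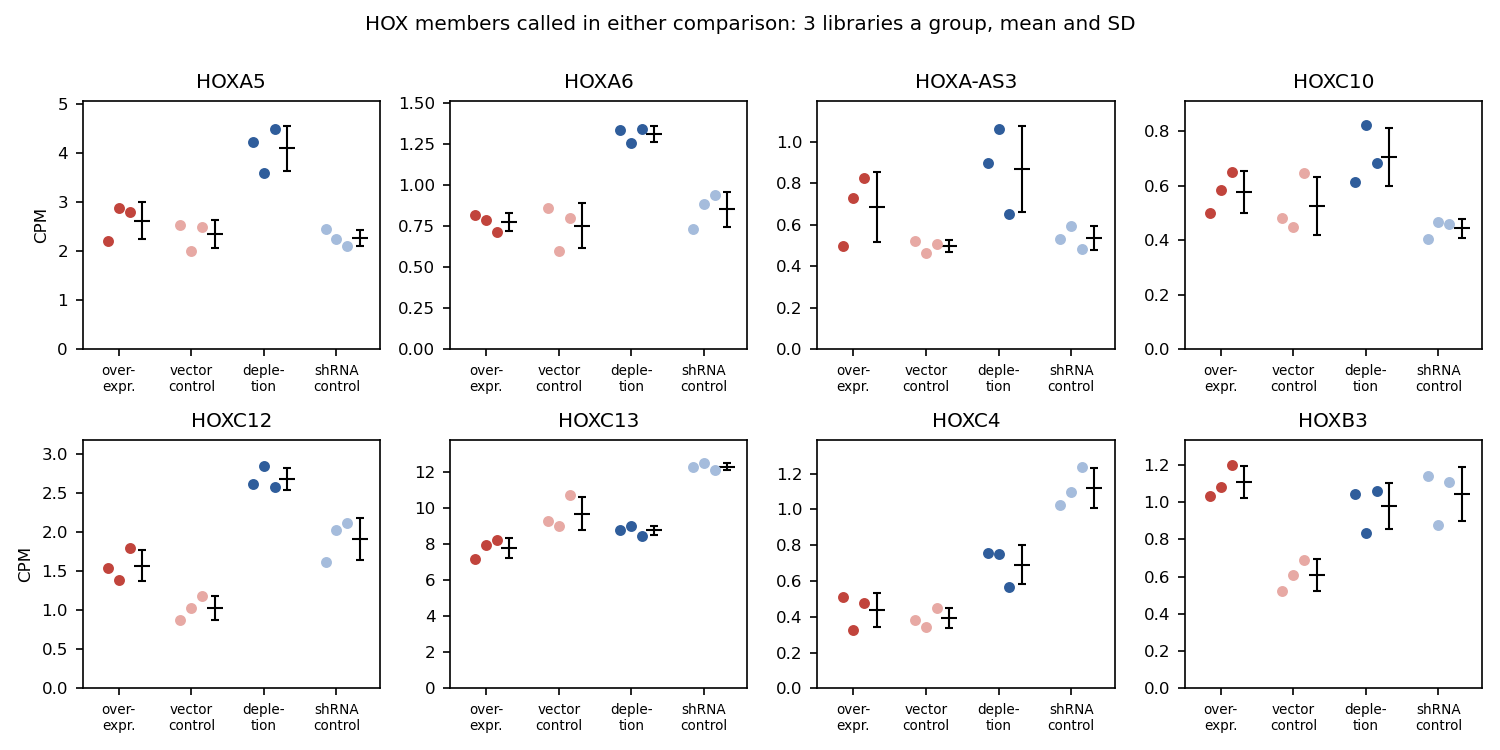
CPM of the 8 HOX members called in either comparison, with 1 point a library and the mean and SD of each group of 3 beside the points. Depletion stands above all other groups for HOXA5, HOXA6 and HOXC12, the shRNA control above all others for HOXC13 and HOXC4, and the vector control below all others for HOXB3 and HOXC12.

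The 2 perturbations were set against each other by testing the difference between the responses, which share no control library. HOXC12 was called higher and HOXC13 lower on both. The difference of responses, depletion minus overexpression, was log2 -0.12 for HOXC12 (SE 0.22, 95% interval of the ratio 0.667 to 1.26) and -0.17 for HOXC13 (SE 0.12, 95% interval of the ratio 0.745 to 1.06), and neither passed the test (edgeR adjusted p = 0.789 and 0.408). Log2 fold changes had the same sign in both comparisons for 17 of the 30 tested members, and 2 were called on both. The matching shares over all tested genes were not computed, so neither count is read as particular to HOX members. The responses differed for HOXA5 (log2 0.69, SE 0.19, edgeR adjusted p = 0.0321) and for HOXB3 (log2 -0.96, SE 0.25, edgeR adjusted p = 0.0216). These 2 of 30 members (6.67%) stand against 10.9% of all tested genes, with 1 member higher where 5.98% of all tested genes were, and 1 lower where 4.91% were. At an unadjusted p under 0.05 there were 5 members, against 24.1% of all tested genes. Each call was lost without single libraries, as given in the closing section. HOXA6 with log2 0.58 (SE 0.25, edgeR adjusted p = 0.163) and HOXC4 with -0.86 (SE 0.31, edgeR adjusted p = 0.0915) were not called, and HOXC4 was called without vector control replicate 3 (edgeR adjusted p = 0.0489).

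The 2 control groups, which differ in vector and in doxycycline, were compared for their starting HOX levels. In the shRNA control 10 of 30 tested members were higher than in the vector control and 3 were lower (43.3%), where 43% of all tested genes were called, 21.7% higher and 21.3% lower, so the share of members called lay at the background. Groups did not overlap for 18 members, against 49.8% of all tested genes, and 15 had an unadjusted p under 0.05, against 49.6%. HOXC4 averaged 1.12 ± 0.11 CPM in the shRNA control and 0.391 ± 0.0556 CPM in the vector control, a fold change of 2.87 (95% interval 2.09 to 3.94, log2 1.52, SE 0.22, edgeR adjusted p = 2.72e-05). HOXB6 was 2.23-fold higher in the shRNA control (log2 1.16, SE 0.15, edgeR adjusted p = 8.17e-06), HOXC12 1.86-fold, HOXB3 1.72-fold and HOXC13 1.27-fold. HOXA3, HOXC5, HOTAIRM1 and HOXA-AS2 were among the other members called higher.

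HOXA10, HOXC11 and HOXB13 were lower in the shRNA control. HOXB13 averaged 274.3 ± 5.2 CPM in the shRNA control and 320.7 ± 38.9 CPM in the vector control (log2 -0.23, SE 0.07, edgeR adjusted p = 0.0196). This value depended on vector control replicate 3, without which it was log2 -0.12 (edgeR adjusted p = 0.0346), and the call was lost without shRNA control replicate 3 (edgeR adjusted p = 0.0624). In a fit of only the compared libraries HOXB13 had log2 -0.22 and was not called either (edgeR adjusted p = 0.0636). HOXA5 averaged 2.27 ± 0.166 CPM in the shRNA control and 2.34 ± 0.289 CPM in the vector control (log2 -0.04, SE 0.14, edgeR adjusted p = 0.83). The control comparison shares its libraries with the other 2, so its values stand beside theirs only as levels. What part vector, doxycycline or cell line had in it cannot be told apart.

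**Figure D3:**
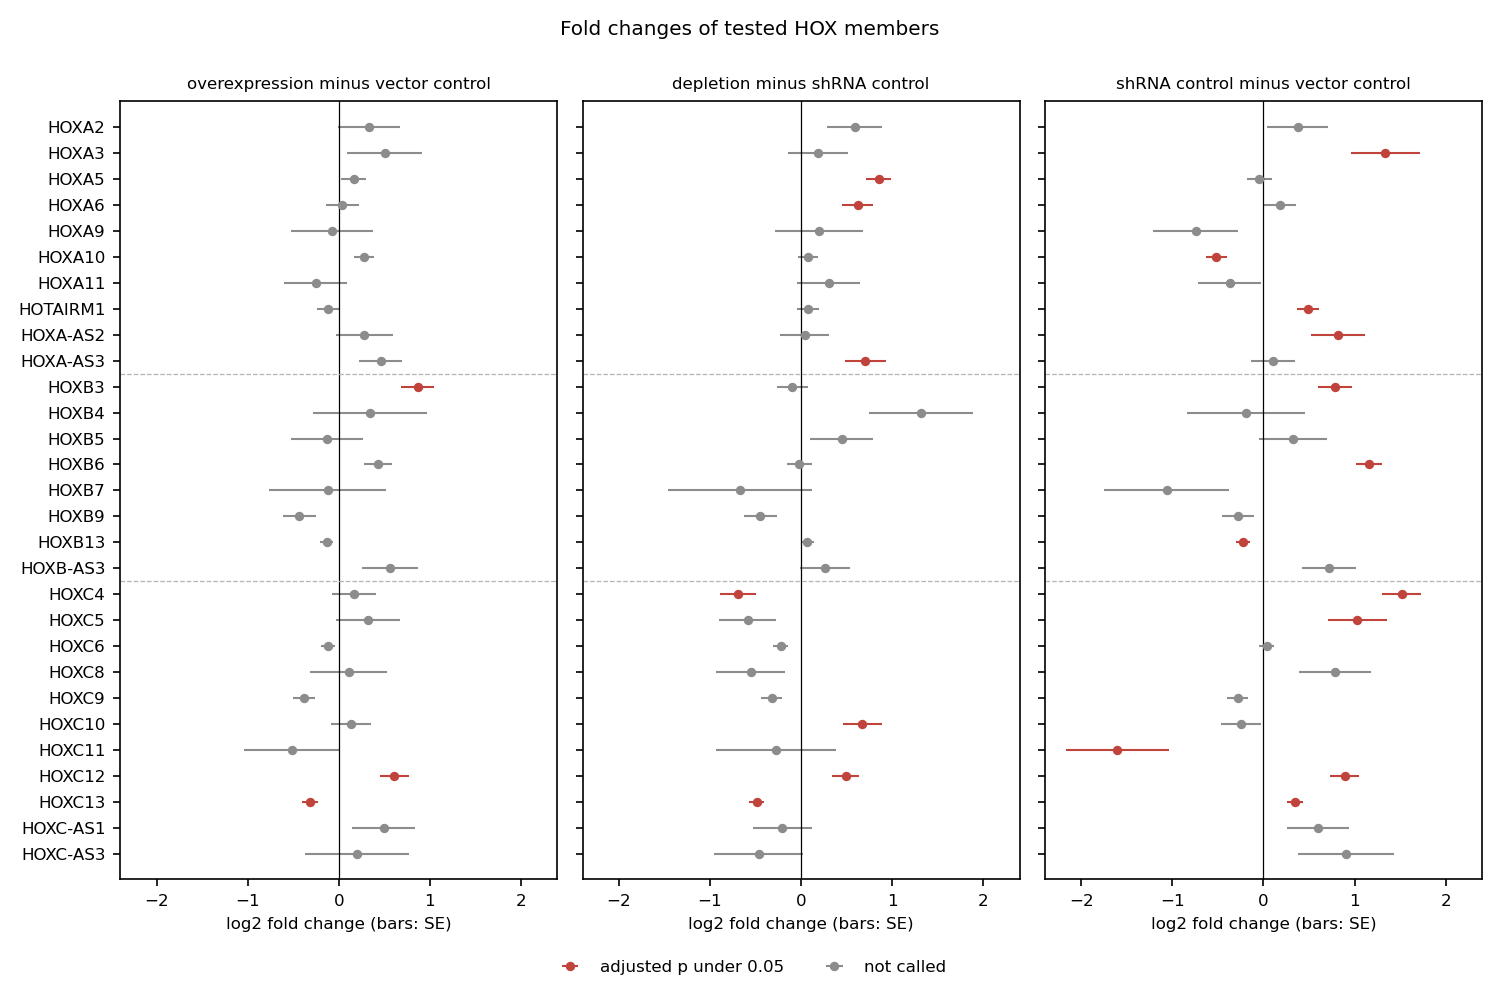
Log2 fold change of tested HOX members for overexpression over vector control (left), depletion over shRNA control (middle) and shRNA control over vector control (right); points are edgeR estimates, bars are standard errors and red marks an adjusted p under 0.05. HOXA5 and HOXC13 stand to opposite sides of 0 in the middle panel, and dashed lines part the HOXA, HOXB and HOXC clusters.

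The genes next to HOXB13 were called on depletion, where HOXB13 was not, and the difference between these genes was not tested. PRAC1, a small nuclear protein gene beside HOXB13 that is expressed in prostate and distal gut, had 59.17, 62.92 and 56.94 CPM after depletion against 36.99, 38.59 and 35.91 CPM in the shRNA control, with no overlap. It rose 1.61-fold (95% interval 1.47 to 1.75, edgeR adjusted p = 6.47e-07) and was called in all 19 alternatives. Its vector control libraries had 61.45, 58.74 and 61.31 CPM, the level of the depleted cells, so that the shRNA control was again the group that stood apart. PRAC2 on the same side had 14.74, 15.9 and 14.53 CPM after depletion against 12.52, 11.29 and 12.73 CPM in the shRNA control (log2 0.31, SE 0.08, edgeR adjusted p = 0.00923). On overexpression neither was called: PRAC1 averaged 65.4 CPM against 60.5 CPM in the vector control, and PRAC2 11.3 CPM against 10.4 CPM.

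**Figure D4:**
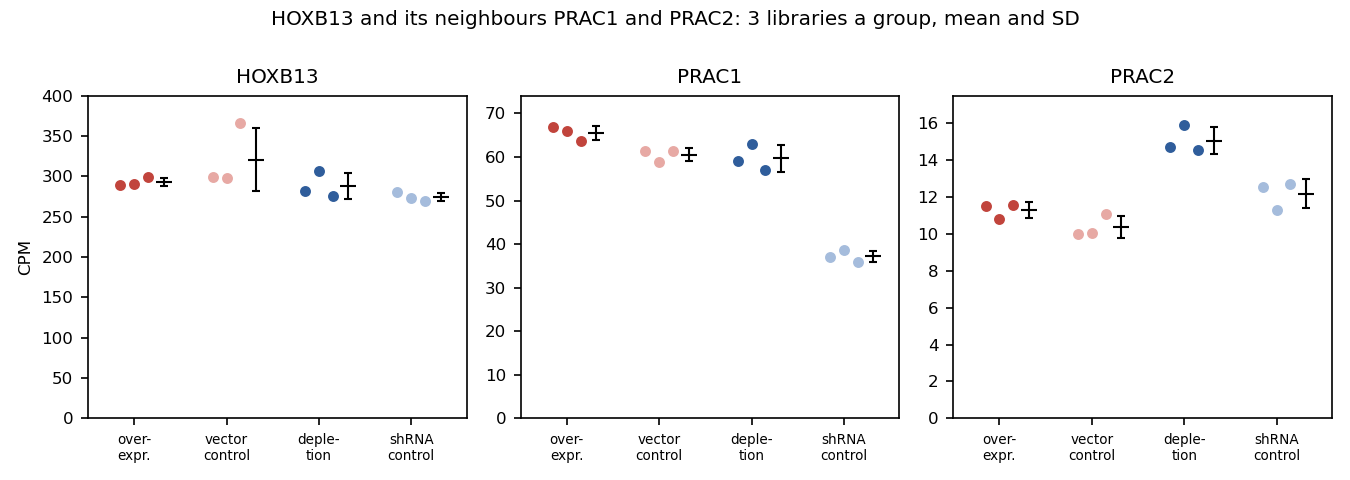
CPM of HOXB13 and of its neighbours PRAC1 and PRAC2 in each library, with the mean and SD of each group of 3. HOXB13 lies between 270 and 365.6 CPM throughout, with vector control replicate 3 highest, while PRAC1 is at 35.91 to 38.59 CPM in the shRNA control and at 56.94 CPM or more in all other libraries.

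Over all 20 tested genes beside the 4 clusters, 2 rose on overexpression, CBX5 (log2 0.36) and SNX10 (log2 0.50), and none fell, where 4.11% of all tested genes were called. Vector control replicate 3 was the lowest library for both, at 418.2 CPM for CBX5 and 6.723 CPM for SNX10. Without it the log2 fold change of SNX10 was 0.32 and that of CBX5 0.26, both still called. Over all 19 alternatives SNX10 lost its call in 12 and CBX5 in 1. On depletion, where 19.8% of all tested genes were called, 5 rose, with PRAC1, ATP5MC3 (log2 0.35) and PRAC2 leading by p, and 2 fell, CALCOCO1 (log2 -0.32) and TAX1BP1 (log2 -0.24). The median log2 fold change of these neighbours was -0.07 on overexpression and 0.08 on depletion, against -0.01 and 0.00 over all tested genes. ATP5MC3 averaged lowest of the 4 groups in the shRNA control, and CALCOCO1 and TAX1BP1 averaged highest there. Of 4 tested noncoding RNAs at the HOX loci that the rule did not take in, HAGLR, the antisense partner of HOXD1, rose on overexpression (log2 0.84, SE 0.21, edgeR adjusted p = 0.0341). There 1.51% of all tested genes rose. HAGLROS, from the same locus, rose on depletion (log2 1.42, SE 0.32, edgeR adjusted p = 0.0049), at 0.374 CPM after depletion against 0.139 CPM in the shRNA control.

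Of 11 tested TALE partners of HOX proteins 1 rose on overexpression (PKNOX2, log2 0.42, edgeR adjusted p = 0.0354), where 1.51% of all tested genes rose. On depletion 4 rose and 1 fell, where 9.4% of all tested genes rose and 10.4% fell. MEIS1, a partner of posterior HOX proteins, had 9.907, 9.313 and 9.544 CPM after depletion against 4.562, 4.652 and 4.551 CPM in the shRNA control, a 2.09-fold rise (log2 1.06, SE 0.08, edgeR adjusted p = 1.46e-07). The vector control, with 7.494 to 8.161 CPM, was again closer to the depleted cells. PKNOX2 (log2 0.92) and PBX3 (log2 0.53) rose as well, and PBX2 fell (log2 -0.53). PKNOX2 averaged 6.84 CPM after depletion, 3.61 CPM in the shRNA control and 5.9 CPM in the vector control. PBX3 averaged 10.9, 7.59 and 12.4 CPM in the same groups, so the shRNA control stood apart for both. For PBX2, at 17.1, 24.8 and 23.4 CPM, the depleted cells did. The 4 TALE genes named for depletion were picked by their difference from the same shRNA control libraries.

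Among 29 tested Polycomb genes RNF2, a ubiquitin ligase for histone H2A, rose on overexpression (log2 0.35, edgeR adjusted p = 0.0381) and none fell. Of all tested genes 1.51% rose and 2.6% fell on overexpression. Vector control replicate 3 had the lowest RNF2 level, 20.24 CPM, and without it the log2 fold change was 0.23 and still called. Over all 19 alternatives the RNF2 call was lost in 9. On depletion 4 rose and 3 fell, where 19.8% of all tested genes were called, so the share of this list lay near the background. EZH2, the methyltransferase of the complex that silences HOX clusters, had 51.42, 52.17 and 50.72 CPM after depletion against 33.12, 33.72 and 34.09 CPM in the shRNA control (log2 0.61, SE 0.06, edgeR adjusted p = 1.34e-06). Its vector control libraries had 57.82 to 58.62 CPM. RBBP7, a histone-binding subunit (log2 0.32), and CBX2, a reader of the silencing mark (log2 0.32), rose, and PHF1 (log2 -0.69), JARID2 (log2 -0.39), both accessory subunits, and RING1 (log2 -0.47), another H2A ubiquitin ligase, fell. The shRNA control had the lowest mean of the 4 groups for EZH2, RBBP7 and CBX2, and the highest for PHF1, JARID2 and RING1. These genes were picked by their difference from the same shRNA control libraries, a choice that favours an extreme mean there.

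Of 16 tested Trithorax and MLL genes none was called on overexpression, where 4.11% of all tested genes were. On depletion PAXIP1, an adaptor subunit, rose (log2 0.20), and the methyltransferases KMT2C (log2 -0.58), KMT2A (log2 -0.30) and ASH1L (log2 -0.25) fell, where 19.8% of all tested genes were called. The shRNA control was the group that stood apart for KMT2C, at 285.5 CPM after depletion, 427.6 CPM in the shRNA control and 237.8 CPM in the vector control, and for ASH1L, at 197.3, 234 and 182.4 CPM in the same groups. Of 12 tested genes of retinoic acid, the classical inducer of anterior HOX genes, CYP26B1, which breaks it down, rose on overexpression (log2 0.80) and ALDH1A3, which makes it, fell (log2 -0.37). In that comparison 1.51% of all tested genes rose and 2.6% fell. On depletion 5 fell and none rose, where 10.4% of all tested genes fell, led by ALDH1A2, another synthetic enzyme (log2 -0.85), and the receptors RARG (log2 -0.57) and RXRA (log2 -0.46). All 3 averaged highest in the shRNA control, with RXRA at 125.6 CPM after depletion, 172.5 CPM in the shRNA control and 125.3 CPM in the vector control. These 3, like KMT2C and ASH1L, were picked by their difference from that group. The median log2 fold change of the retinoic acid list was -0.25 on depletion and -0.02 on overexpression. Of the related ParaHox and EVX genes only PDX1 was high enough to test, and it was not called in either comparison.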

How the data were processed

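Raw read counts per Ensembl gene ID were deposited by the authors in 1 table of 12 libraries. The submitters' processing notes name hg19 and the tools STAR 2.5.2a, DESeq2 1.14.1 and featureCounts 1.5.0-p3. A stranded total RNA kit was used, per the labels. The annotation release, strand setting, treatment of multiply mapped reads and counting of mates: not given in the sources used here. Of counts from 1 to 10, 60.8% to 66.8% were even in each library, so a floor of 3 counts may stand for fewer fragments. Floors cover counting error only.

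Columns were matched to samples by name. Counts were tested in R 4.3.3 with edgeR 4.0.16: filterByExpr by group (26076 genes kept), TMM scaling, glmQLFit on all 4 groups with 8 residual degrees of freedom, glmQLFTest, and Benjamini-Hochberg adjustment over all tested genes with a threshold of 0.05. An SE is the log2 fold change divided by the root of F. The fit was tried on simulated counts with 200 genes changed by log2 2. This is larger than any log2 fold change of a tested member, so performance at the sizes reported here was not tested. CPM used TMM-scaled library sizes, and CPM per kb the GENCODE 29 exon length. Promoter windows are from RefSeq GRCh38.p14. Other coordinates are not given, since the counts are on hg19.

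Values in every library are given for HOXB13, for members called on overexpression or depletion and for the highest member of each cluster per kb. From other lists up to 3 called genes per direction with the smallest p are named, with PRAC1 and PRAC2. For genes picked by a call on depletion, this choice favours an extreme level in the shRNA control or after depletion. Genes described outside this rule were chosen after their values were seen. A member that counts in the totals is not reported here. Members and lists were chosen with earlier results of these data known. Alternatives were DESeq2 1.42.0, voom of limma 3.58.1, RLE scaling, a filter of 1 CPM in 3 libraries or none, a replicate block, a fit of only the compared libraries and leaving out each library. For genes of other lists these were added after seeing the data. With 3 libraries a side the smallest p of an exact two-sided permutation test is 0.1, and none is reported. Chi-square values between replicates were at least 6.547 per degree of freedom, so none was taken for a repeat.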

Additional observations from a re-analysis of the deposited data

Results flagged for a closer look

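The response of HOXA5 differed between the perturbations, with a log2 difference of 0.69 (0.6877, SE 0.19, edgeR adjusted p = 0.0321), depletion response minus overexpression response. HOXA5 had a log2 fold change of 0.85 on depletion and 0.16 on overexpression, and 3 of 3 depleted libraries lay above all shRNA control libraries. The difference fell short of the threshold without vector control replicate 1, overexpression replicate 1, shRNA control replicate 2 or 3, or depletion replicate 1 or 3 (log2 0.58 to 0.69, edgeR adjusted p = 0.0601 to 0.0911).

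The response of HOXB3 differed the other way, with a log2 difference of -0.96 (-0.9623, SE 0.25, edgeR adjusted p = 0.0216). HOXB3 had a log2 fold change of -0.10 on depletion and 0.87 on overexpression, and 3 of 3 overexpressing libraries lay above all vector libraries. The vector control, at 0.607 ± 0.085 CPM, was the group below the other 3, which averaged 0.978 to 1.1 CPM. The difference fell short without vector control replicate 1, overexpression replicate 3, shRNA control replicate 1 or 3, or depletion replicate 2 (log2 -0.92 to -0.86, edgeR adjusted p = 0.0515 to 0.0636).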

How the results depend on the processing

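No log2 fold change of a named member or list gene turned its direction with a call in any alternative, and the median of all tested genes moved by less than 0.1 in each. On overexpression 3 members were called. limma voom called 1, and a fit of only the libraries compared called 0, with 5 members at an unadjusted p under 0.05 and 1.37% of all genes called. Leaving out single libraries gave 1 to 3, with HOXB3 the 1 left in most and HOXC9 the 1 left without overexpression replicate 3. On depletion 7 were called and 3 to 9 without single libraries, the fewest without shRNA control replicate 1, and 10 in a fit of only the libraries compared, with 32% of all genes called. The difference of responses went from 2 to between 0 and 3, with 0 without vector control replicate 1 or shRNA control replicate 3 (4 and 5 members at an unadjusted p under 0.05). The control comparison went from 13 to between 9 and 14. With a replicate block edgeR called 2 members on overexpression, 7 on depletion, 2 for the difference of responses and 13 between controls. Libraries with the same number deviated from their group means with correlations of -0.022 to 0.0827, so the numbers were not taken to pair libraries.

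Of the list genes named as changed on depletion, CBX2, PAXIP1, CALCOCO1 and TAX1BP1 lost their call without single libraries, and MEIS1, EZH2, PRAC1, PRAC2, HAGLROS and HOXC13-AS kept it in every alternative run. On overexpression CYP26B1 lost its call in 13 of 19 alternatives, SNX10 in 12, RNF2 and HAGLR in 9, PKNOX2 in 6, and CBX5 and ALDH1A3 in 1. Of the 30 tested members 19 averaged under 1 CPM, where counting error limits what can be called.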
